A study of Homo sapiens with 6 samples.

Results

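ATC1 is 1 of 4 doxorubicin-tolerant clones of K562, a human chronic myeloid leukaemia cell line that carries the BCR-ABL1 fusion and has features of red cell and platelet precursors. It was set against the other 3 clones, ATC2, ATC3 and ATC4, gene by gene, and the untreated parental library Parental_1 was then placed beside them. ATC1 is 1 of 6 samples in the series, which asked how the transcriptional state of drug-tolerant cells differs from that of sensitive K562 cells. All 4 clones were grown out under doxorubicin and kept at 225 ng/ml, so the drug is common to ATC1 and to the clones it is compared with. Parental_1 and a second library of the same untreated parental sample, Parental_2, had no drug, and 1 further sample of parental cells had 225 ng/ml for 48 h. Each clone came from a different surviving well and is represented by 1 library. The wells were seeded with many cells, so the labels do not show that a clone descends from 1 cell, and the spread between clones is the only replicate error available.

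Doxorubicin is an anthracycline that intercalates into DNA and traps topoisomerase II on it, and cells can limit its effect by pumping it out, by changing its targets or by changing how they handle damage and stress. Clones that survive the same drug can reach tolerance by different routes, and clones also differ in genes that have no part in it, through inherited differences in chromatin and in chromosome copies. K562 has an unstable, rearranged genome. A single library cannot show whether the drug had any part in a gene that stands apart in 1 clone.

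The RNA libraries held 21361758 counts in ATC1 and 18420238 to 21252948 in the other clones, with 20895918 in Parental_1, 12537146 in Parental_2 and 14146994 after 48 h of drug. The share of mitochondrially encoded genes was 6.83% of counts in ATC1 and 5.07% to 9.63% in the other clones. Levels are given as counts (reads per gene) and as CPM, counts scaled to library size with TMM factors. Erythroid genes that mark K562 were present in ATC1 within the range of the other clones: the embryonic globin HBE1 stood at 3537 CPM against 1484 to 6800 CPM, the transferrin receptor TFRC at 1233 against 799 to 1690 CPM, and the erythroid factor GATA1 at 318 against 279.9 to 369 CPM. The 4 megakaryocyte markers summed to 359 CPM in ATC1, 201 to 1140 CPM in the other clones and 35.4 CPM in Parental_1. Markers of other cell types were not all low in ATC1. MS4A1, ELANE, KRT5 and LUM had 0 counts, and KRT14 is not analysed here. The epithelial set summed to 38.9 CPM in ATC1, within the range of the other clones, and 58.3 CPM in Parental_1. Nearly all of it in ATC1 was EPCAM, at 38.7 CPM. The fibroblast set summed to 29.2 CPM in ATC1, again within the range of the other clones, and 2.39 CPM in Parental_1. COL1A1 had 456 counts in ATC1 against 33 in Parental_1, and COL1A2 had 175 against 9. The granulocyte and monocyte set reached 55.1 CPM in ATC1 against 38.8 to 54.7 CPM in the other clones, nearly all of it LYZ. In these bulk libraries a smaller share of cells with a transcript and less of it per cell cannot be told apart.

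ATC1 was the least divergent of the 4 clones by the number of genes outside the range of the others. Of 15830 genes whose highest clone held at least 20 counts, ATC1 lay above all 3 other clones in 2869 (18.1%) and below all 3 in 2957 (18.7%). The same counts were 4195 above and 4246 below for ATC2, 4549 and 4162 for ATC3, and 4217 and 4425 for ATC4. ATC1 was at least 2-fold apart from ATC2 in 2442 genes, from ATC3 in 2418 and from ATC4 in 2469. The other clones were 2-fold apart from each other in 2805 to 3456 genes. ATC1 and Parental_1 were 2-fold apart in 3614 genes, of which 2714 were higher in ATC1. Most of the genes outside the range were so by small margins: the 95% counting interval of the ratio to the nearest clone lay away from 1 in 1260 of the genes above and 1188 of the genes below.

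A 2-fold margin over the nearest other clone was therefore used to pick out genes that stood apart. ATC1 was at least 2-fold above every other clone in 202 genes (1.28% of those examined) and at least 2-fold below in 175 (1.11%). At 4-fold the counts were 42 and 33, and at 8-fold 18 and 10. The numbers at 2-fold were 584 above and 200 below for ATC2, 124 and 521 for ATC3, and 460 and 667 for ATC4. The same counting interval lay away from 1 in 200 of the 202 genes above and 143 of the 175 below. Genes named for their margin were chosen by these values, so their folds describe them and are not tests. Protein-coding genes made up 80.7% of the genes above and 76.6% of those below, against 83.4% of all genes examined. Just inside the margin above was SIGLEC17P, a pseudogene with 72 counts in ATC1 against 31, 18 and 6, and just outside it SH2D1B, with 688 against 131, 82 and 310. Below, ALDH5A1 just missed the margin, with 70 counts in ATC1 against 350, 124 and 1263.

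Parental_1 lay within 2-fold of the range of the other clones for most genes that were high in ATC1. Of the 202 genes above, Parental_1 was within 2-fold of the other clones' range in 156 and at least 2-fold below that range in 36. It was at least 2-fold above it, on the side of ATC1, in 10 (4.95%). Some genes among the 156 left Parental_1 no room below the range. In NRN1 and NLGN4X, for example, ATC3 had 0 counts, so Parental_1 could not fall 2-fold below it. Over all genes examined, Parental_1 was at least 2-fold above ATC2, ATC3 and ATC4 in 1.05%. Among the 175 genes below, Parental_1 shared the low side with ATC1 in 60 (34.3%). It lay within 2-fold of the other clones' range in 108 and at least 2-fold above that range in 7. Parental_1 was within 2-fold of ATC1 itself in 63 of these 175 and in 22 of the 202 genes above. Parental_1 was at least 2-fold below the 3 other clones in 7.55% of all genes. The levels of ATC2, ATC3 and ATC4 enter both these shares and the choice of genes, so no test was made of them. The same shares for the other clones ranged from 4.03% to 28.5% for genes above and from 25.5% to 58.6% for genes below, with ATC4 highest on both sides.

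**Figure D1:**
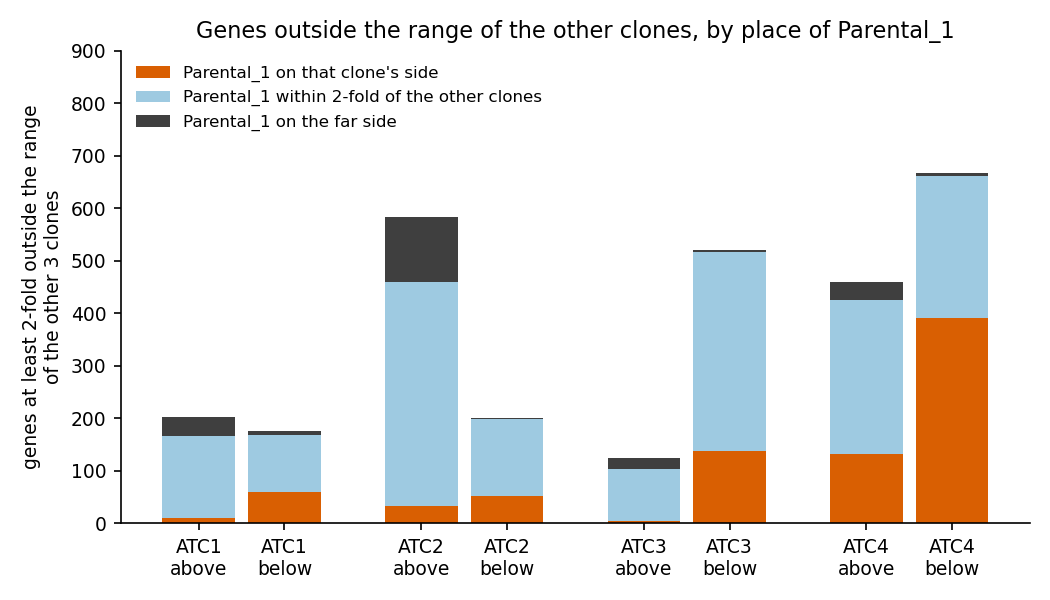
Number of genes at least 2-fold above or below the range of the other 3 clones (y axis, genes) for each clone (x axis), with bars stacked by where Parental_1 lies. ATC1 has 202 genes above and 175 below, and Parental_1 shares its side in 10 of the former and 60 of the latter.

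No gene passed the test of ATC1 against the other clones. With 1 library against 3, the quasi-likelihood test of edgeR (Benjamini-Hochberg adjustment) called 0 of 18024 genes higher (0%) and 0 lower (0%), and its lowest adjusted p was 0.399. Before adjustment, 166 higher and 161 lower genes had a p under 0.05. The test assumes that ATC1 varies as the other clones do, and its p-values measure only the spread between these clones. DESeq2 called 10 higher (0.0657% of 15228) and 25 lower (0.164%), and limma-voom called 0 and 0. Leaving out ATC4 in edgeR gave 11 higher (0.0622% of 17680) and 5 lower (0.0283%), and leaving out ATC2 or ATC3 gave 0. Of the 35 genes called by DESeq2 and the 16 called without ATC4, 7 were shared, among them TSPYL6, KLF8, EPSTI1, BCL6B and SPAG6. All 35 genes called by DESeq2 were among those 2-fold outside the range. In what follows, a fold is the CPM ratio of ATC1 to the nearest other clone with its 95% counting interval, and each SE was derived from the log2 fold change and its F value.

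KLF8, a zinc finger factor of the Krüppel-like family (chromosome X, 56232421 to 56287889), had 325 counts in ATC1, 7, 3 and 8 in ATC2 to ATC4, and 0 in both parental libraries. Its level was 14.5 CPM in ATC1 against 0.300 ± 0.129 CPM (SD, n = 3), and its ratio to ATC4, the nearest clone, was 36.6-fold (18.4 to 85.6). The edgeR log2 fold change was 5.57 ± 0.68 (SE), with an adjusted p of 0.687 there and 2.51e-07 in DESeq2, and from 2.51e-07 to 1.00 over the alternatives. BCL6B, a repressor related to BCL6 (chromosome 17, 7023020 to 7030290), showed the other pattern, with 139 counts in ATC1, 2, 0 and 2 in the other clones, but 235 in Parental_1 and 166 in Parental_2. It was thus near 0 in ATC2, ATC3 and ATC4, and its level was 6.19 CPM in ATC1 and 12.5 CPM in Parental_1. The 48 h library held 163 counts of BCL6B and 4 of KLF8.

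TSPYL6, a testis-specific member of the TSPY-like family (chromosome 2, 54253184 to 54256272), had 1300 counts in ATC1, 21, 53 and 30 in the other clones, 192 in Parental_1 and 174 in Parental_2. ATC1 stood at 57.9 CPM against 1.74 ± 0.856 CPM (SD, n = 3) in the others, a 21.4-fold ratio to ATC3 (16.3 to 28.8), and Parental_1 lay between at 10.2 CPM. The edgeR log2 fold change was 5.05 ± 0.55 (SE), with an adjusted p of 0.538 there, 5.65e-11 in DESeq2 and up to 1.00 over the alternatives. EPSTI1, an interferon-inducible gene (chromosome 13, 42886388 to 42992271), had 124 counts in ATC1, 0, 1 and 1 in the other clones and 1 in Parental_1. Its ratio of 108-fold to ATC3 rests on 1 count there and has an interval of 19.1 to 4314. The 48 h library held 34 counts of EPSTI1 against 3 in Parental_2. An interferon response list that does not hold EPSTI1 had 35 expressed genes. Of these, 8 were highest in ATC1 and 3 lowest, against 18.1% and 18.7% of all genes. No member passed the 2-fold margin.

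NRN1, the membrane-anchored growth factor neuritin (chromosome 6, 5997999 to 6007605), had 551 counts in ATC1, 6, 0 and 23 in the other clones and 1 in Parental_1. ROBO2, an axon guidance receptor for SLIT proteins, had 295 counts against 3, 17 and 2, with 19 in Parental_1. NLGN4X, a synaptic adhesion protein of the neuroligin family, had 417 counts against 58, 0 and 8, with 0 in Parental_1. For all 3 genes ATC1 was the highest library, and Parental_1 lay at the level of the other clones. Their ratios to the nearest clone were 21.6-fold (14.3 to 34.4), 15.2-fold (9.31 to 26.4) and 6.39-fold (4.85 to 8.57). ANKRD44, a regulatory subunit of a protein phosphatase, followed the same order with 180 counts against 16, 23 and 8, and 11 in Parental_1. C9orf135 had 411 counts against 5, 0 and 43, with 2 in Parental_1.

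DHRS2, a short-chain dehydrogenase that reduces dicarbonyls (chromosome 14, 23630115 to 23645639), had 5218 counts in ATC1, 834, 370 and 427 in the other clones, 813 in Parental_1 and 164 in the 48 h library. Its log2 fold change was 3.10 ± 0.47 (SE), with an adjusted p in edgeR of 1.00 and over the alternatives from 2.3e-04 to 1.00. SETD7, a methyltransferase of histone H3 lysine 4 and of other proteins (chromosome 4, 139495941 to 139606699), had 372 counts in ATC1, 54, 43 and 57 in the other clones, 165 in Parental_1, 726 in Parental_2 and 305 in the 48 h library. The 3 other clones lay close together at 2.57 ± 0.333 CPM (SD, n = 3), and ATC1 and both parental libraries lay above them. CYB5A, cytochrome b5, an electron carrier for desaturases and P450 enzymes, had 86 counts in ATC1, 2, 2 and 0 in the other clones, 71 in Parental_1 and 78 in Parental_2. CYB5A was near the parental level in ATC1, at 3.83 CPM against 3.77 CPM in Parental_1, and nearly absent from the other clones.

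LIPA, the acid lipase that splits cholesteryl esters in lysosomes, had 269 counts in ATC1, 36, 17 and 17 in the other clones and 9 in Parental_1. COL6A1, a chain of collagen VI, had 528 counts against 20, 59 and 73, with 9 in Parental_1. TNFSF13B, the B-cell survival factor BAFF, had 57 counts against 7, 5 and 2, with 13 in Parental_1. In these genes ATC1 stood above both the clones and Parental_1. Smaller margins in the same direction were seen for SOX6, a repressor of embryonic globin genes (530 counts against 199, 148 and 140), SPRY1, a feedback inhibitor of receptor tyrosine kinase signalling (85 against 30, 30 and 27), CEBPE, a factor of late granulocyte maturation (56 against 10, 16 and 16), and MEST, an imprinted gene (26 against 5, 7 and 9). An unnamed pseudogene, ENSG00000256304, had the smallest adjusted p of all genes. It had 1126 counts in ATC1, 12, 7 and 20 in the other clones and 7 in Parental_1, with an adjusted p of 0.399 in edgeR and from 7.86e-17 to 1.00 over the alternatives. Reads of pseudogenes can be shared with their parent genes, so its source is uncertain.

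**Figure D2:**
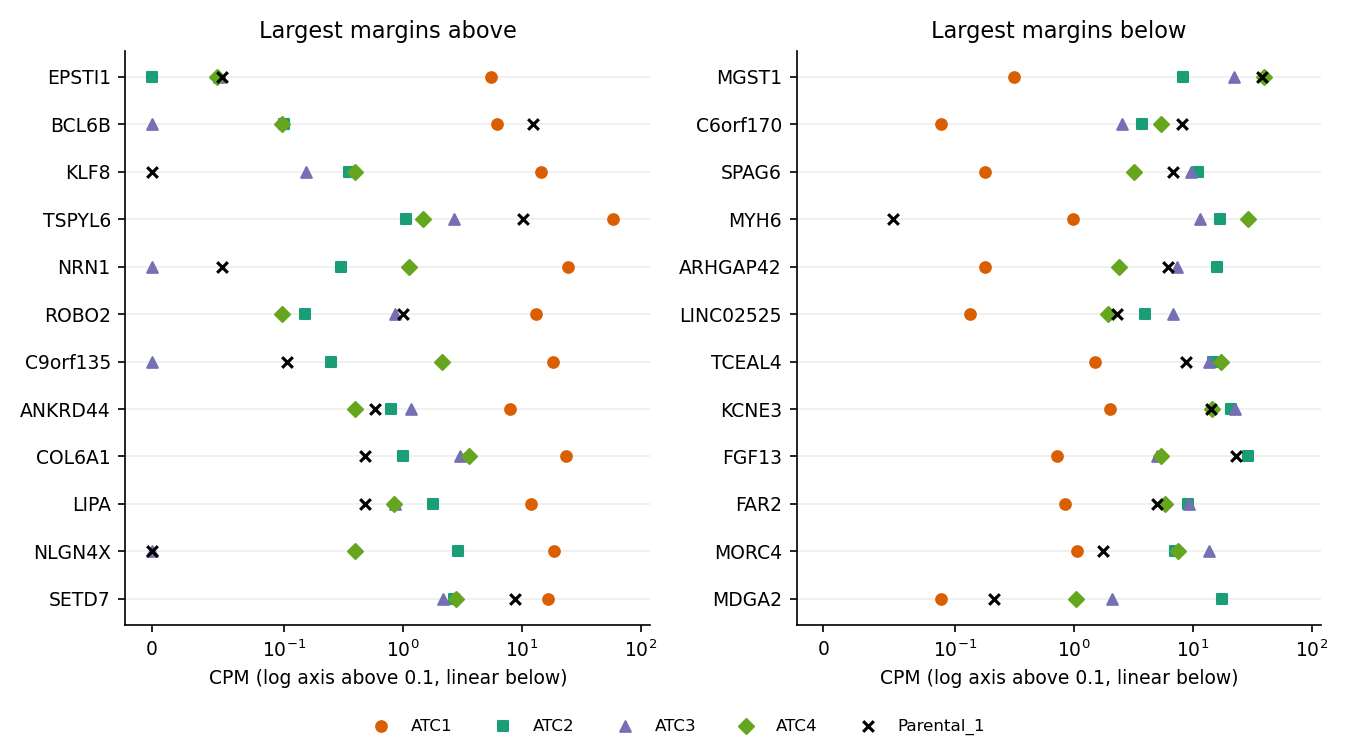
CPM (x axis, logarithmic above 0.1 and linear below) of the 12 named genes with the largest margins above the other clones (left) and below them (right), 1 point per library. ATC1 stands to the right of the other clones for genes above and to the left for genes below, and the Parental_1 cross lies on the side of ATC1 for BCL6B, TSPYL6 and SETD7 on the left and MYH6, MORC4 and MDGA2 on the right.

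Low in ATC1 was MGST1, a membrane-bound glutathione transferase that conjugates electrophiles and reduces lipid peroxides (chromosome 12, 16347142 to 16609259). It had 7 counts in ATC1, 166, 437 and 804 in the other clones, 718 in Parental_1 and 396 in Parental_2. ATC1 stood at 0.312 CPM against 23.4 ± 15.7 CPM (SD, n = 3) and 38.2 CPM in Parental_1, a 26.7-fold ratio to ATC2, the nearest clone (12.7 to 67.4). The log2 fold change was -6.20 ± 1.24 (SE), with an adjusted p of 1.00 in edgeR, 8.52e-07 in DESeq2, and between these over the alternatives. Of 28 genes examined from the list of glutathione and of NRF2, the factor that induces antioxidant enzymes, 3 were lowest in ATC1, MGST1 included, and 4 highest, and MGST1 alone passed the 2-fold margin. The related MGST2 and MGST3 had 838 and 850 counts in ATC1, against 240 to 695 and 567 to 1573 in the other clones.

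Genes low in ATC1 with Parental_1 within 2-fold of the other clones' range numbered 108 of 175. In some of these, such as CCND3 and TUBB1, Parental_1 was under that range. Without ATC4, Parental_1 was on the side of ATC1 in 60.3% of the genes below (34.3% with it). KCNE3, an accessory subunit of potassium channels, had 45 counts in ATC1, 416, 447 and 294 in the other clones and 268 in Parental_1. SPAG6, a protein of the axoneme of cilia and sperm tails, had 4 counts against 220, 188 and 65, with 127 in Parental_1. FGF13, an intracellular member of the fibroblast growth factor family that binds sodium channels, had 16 counts against 574, 98 and 109, with 429 in Parental_1. For each of the 3, ATC1 lay under all other libraries of the table. RYR1, the calcium release channel of skeletal muscle, had a smaller margin, with 107 counts against 717, 451 and 607 and 423 in Parental_1, a 4.82-fold ratio to ATC3 (3.90 to 6.01). TCEAL4, an X-linked gene of the transcription elongation factor A-like family, had 34 counts against 295, 269 and 348, with 164 in Parental_1, and its log2 fold change was -3.32 ± 0.59 (SE).

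Others of this class had very few reads in ATC1. C6orf170 had 2 counts against 75, 50 and 110, with 151 in Parental_1, a 28.6-fold ratio to ATC3 whose interval of 7.52 to 243 reflects those 2 counts. ARHGAP42, a GTPase-activating protein for RhoA, had 4 counts against 320, 145 and 48, with 116 in Parental_1. The non-coding transcript LINC02525 had 3 counts against 79, 133 and 39, and FAR2, a fatty acyl-CoA reductase, had 19 against 183, 182 and 117. AL137003.1, an antisense transcript, had 0 counts in ATC1 against 90, 42 and 46, which places ATC1 at least 16.02-fold lower than the lowest other clone with a floor of 3 counts. The sources used here do not say whether the counting used strand, and reads of antisense and overlapping genes may not be separated.

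In other genes ATC1 and Parental_1 were both below the other clones. MYH6, the alpha heavy chain of cardiac myosin, had 22 counts in ATC1, 334, 225 and 585 in the other clones, 1 in Parental_1 and 0 in Parental_2. ATC1 was thus above the parental libraries but 11.7-fold under ATC3 (7.54 to 19.1). MYH6 is close in sequence to its neighbour MYH7, so its reads may be split between them. MORC4, an ATPase of the MORC family, had 24 counts against 141, 269 and 153, with 33 in Parental_1, and MDGA2, a neuroligin-binding adhesion protein, had 2 against 349, 41 and 21, with 4 in Parental_1. For MORC4 and MDGA2, ATC1 was under Parental_1, and each of the other clones was above both. The log2 difference of ATC1 from Parental_2 was 0.96 for MORC4, with 6 counts in Parental_2, and -1.80 for MDGA2, with 7. SOX4, a transcription factor of progenitor cells that was named after its values were seen, had 0 counts in ATC1 against 24, 18 and 60, at least 6.87-fold lower with a floor of 3 counts, and 3 in Parental_1.

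TUBB1, the beta tubulin of platelets, had 342 counts in ATC1, 1161, 1516 and 1750 in the other clones, and 720 in Parental_1. Its ratio to ATC2 was 3.82-fold (3.38 to 4.32). The log2 difference of TUBB1 in ATC1 was -1.32 from Parental_1 and -0.10 from Parental_2, which held 197 counts. The wider megakaryocyte and platelet list did not stand apart in ATC1: of 24 genes examined, 2 were highest and 4 lowest in ATC1, with a median log2 difference of -0.32 from the mean of the other clones, where all genes had 0.01. Parental_1 had a median of -2.71 for this list, so ATC1 shared with the other clones a level well above it. ITGA2B, the platelet integrin alpha IIb, had 6529 counts in ATC1, 19329, 13373 and 3757 in the other clones and 615 in Parental_1. PF4, platelet factor 4, had 2 counts in ATC1, 57, 79 and 0 in the other clones and 0 in Parental_1. For these genes ATC1 lay between ATC4 on the low side and ATC2 and ATC3 on the high side. PRF1, which encodes perforin, was lower in ATC1, with 30 counts against 836, 66 and 137, and 1430 in Parental_1.

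Doxorubicin's pump and targets were within the range of the other clones. ABCB1, which encodes the P-glycoprotein pump (chromosome 7, 87503633 to 87713323), had 10198 counts in ATC1, 43531, 7770 and 15339 in the other clones and 52 in Parental_1. ATC1 thus lay between ATC3 and ATC4, and 7.31 log2 units above Parental_1. TOP2A and TOP2B, the topoisomerase II genes, had 7189 and 6471 counts in ATC1. TOP2A was at 320.2 CPM in ATC1 and at 288, 270.2 and 626 CPM in ATC2 to ATC4. TOP2B was at 288 CPM in ATC1 and at 313, 203 and 306 CPM in ATC2 to ATC4. Both were lower than in Parental_1, which held 12282 and 8629 counts. None of the 3 passed edgeR's test against the other clones, with an adjusted p of 1.00 for each.

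Genes next to ABCB1 on 7q21 separated ATC1 and ATC3 from ATC2 and ATC4. Of 17 neighbours examined (ABCB1 among them), 12 were lowest in ATC1 and 0 highest, against 18.7% and 18.1% of all genes. The median log2 difference was -1.56 from the mean of the other clones. Relative to Parental_1 the median for ATC1 was 0.51. ATC3 was the lowest clone in 5 of the 17. Among the genes lowest in ATC1, the counting interval of the ratio to ATC3 included 1 for ADAM22, C7orf23, CLDN12, CROT, GRM3, KIAA1324L and TP53TG1. SLC25A40, a mitochondrial carrier, had 800 counts in ATC1, 5019, 818 and 2728 in the other clones and 876 in Parental_1. CROT, a peroxisomal carnitine transferase, had 97 counts against 967, 97 and 387, with 158 in Parental_1. CLDN12, a claudin, had 648 against 4077, 591 and 2051, with 351 in Parental_1. In these genes ATC1 and ATC3 were close to each other, and ATC2 and ATC4 were higher. For SRI, the calcium-binding protein sorcin, ATC1 was over 2-fold below ATC3 too, with 837 counts against 4945, 1647 and 2560, and 1434 in Parental_1. The same held for RUNDC3B, with 7 counts against 301, 25 and 232, and 1 in Parental_1. Smaller ratios of ATC1 to ATC3 whose interval lay away from 1 were seen for DBF4, at 1.27-fold lower (1.19 to 1.37), and SLC25A40, at 1.17-fold lower (1.06 to 1.29). With libraries scaled by their totals alone, 7 neighbours in place of 12 were lowest in ATC1, and the median was -1.52.

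The lists that contained the highest share of members lowest in ATC1 were, besides the neighbours of ABCB1, the HOX genes, the chaperones of the endoplasmic reticulum and the targets of ATF4. These lists were singled out after their counts were seen. ATF4 is the transcription factor that cells translate when amino acids run short or the endoplasmic reticulum is stressed, and it induces genes for amino acid synthesis and import. Of 27 list members examined, 16 were lowest in ATC1 and 0 highest, against 18.7% lowest and 18.1% highest over all genes, with a median log2 difference of -0.63 from the mean of the other clones against 0.01 over all genes. No member reached the 2-fold margin, and none passed edgeR's test. Among the 16, the counting interval of the ratio to the nearest clone included 1 for PSAT1 and SESN2. In 12 of the 16 Parental_1 was above ATC1 as well, and the median difference of the 27 members between ATC1 and Parental_1 was -0.35. ATC2 was the highest clone in 16 of the 27.

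ATF4 itself had 5700 counts in ATC1, 7723, 9355 and 6654 in the other clones and 5915 in Parental_1, or 254 CPM against 397 ± 74.7 CPM (SD, n = 3). PHGDH, the first enzyme of serine synthesis, had the widest margin, with 2302 counts in ATC1, 4128, 4375 and 3725 in the other clones and 1408 in Parental_1. Its ratio to ATC4 was 1.79-fold (1.70 to 1.89), and Parental_1 was lower still. MTHFD2, a mitochondrial folate enzyme, had 2457 counts against 5004, 3638 and 3092, with 3515 in Parental_1. The amino acid transporter subunit SLC3A2 had 6316 counts against 9117, 9678 and 8130, with 5796 in Parental_1, and CTH, which makes cysteine from cystathionine, had 359 against 543, 462 and 492, with 463. Each of these was lower in ATC1 than in every other clone, while Parental_1 was on either side of it. DDIT3, the stress factor CHOP, had 797 counts in ATC1, close to the 857 of ATC4 and under the 2293 and 1630 of ATC2 and ATC3. ALDH1L2, a mitochondrial folate enzyme of the same list, went the other way, with 1053 counts in ATC1 and 1277 in ATC4 against 148 and 124 in ATC2 and ATC3. In the 48 h library all 27 members were below Parental_2, with a median log2 difference of -2.20.

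**Figure D3:**
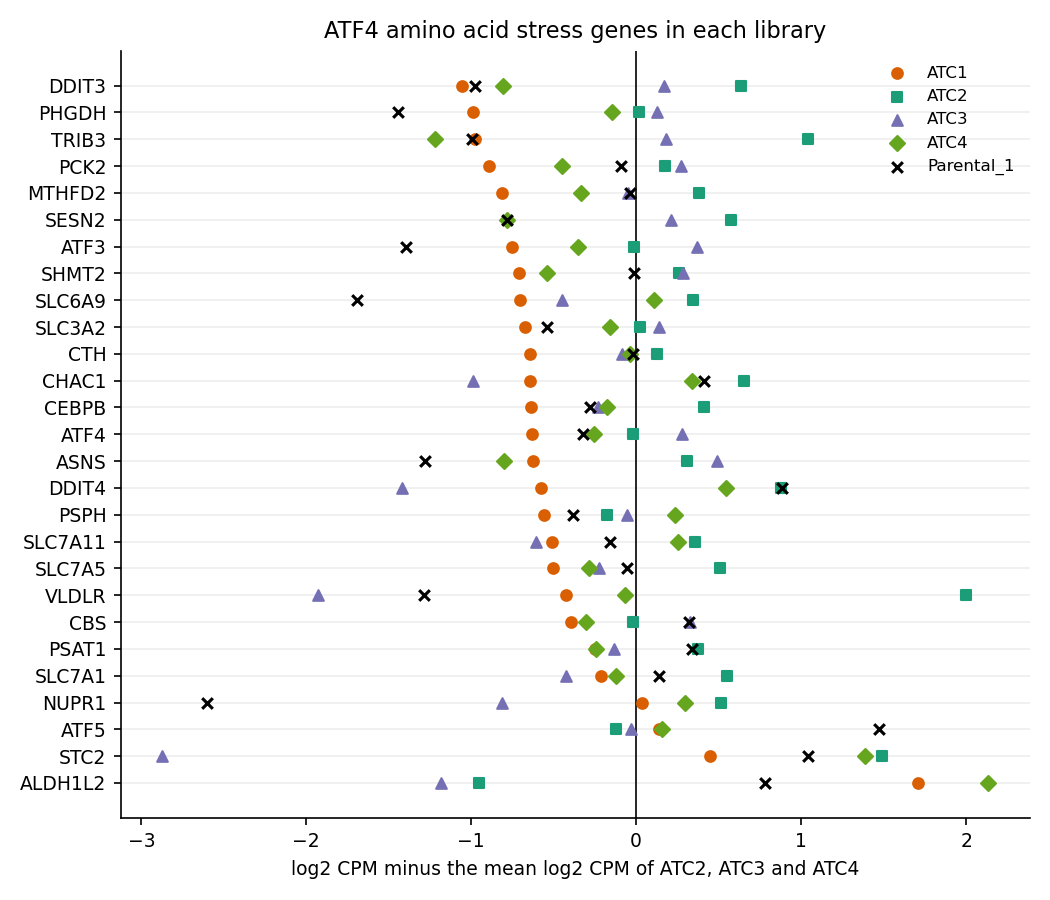
Log2 CPM of each expressed gene of the ATF4 list in each library, minus the mean log2 CPM of ATC2, ATC3 and ATC4 (x axis), 1 row of points per gene. ATC1 lies left of 0 for 23 of the 27 genes and is the lowest clone in 16, while ATC2 lies mostly to the right.

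ATF4 acts on DNA with C/EBP partners at a composite site, and the promoters of the list were searched for its core TGATGNAA on both strands in the 250 bases before the gene start (RefSeq, GRCh38.p14). Of 23 list genes with a promoter, 4 held a match (17.4%), against 1104 of 35116 promoters (3.14%). The 3 of these that were expressed are printed because they are list members whose levels can be read against the sequence; capitals mark the match. In ASNS (chr7:97872409-97872658, minus strand) it begins 68 bases before the start, in ATF3 (chr1:212565157-212565406, plus strand) 191 bases before, and in CHAC1 (chr15:40953221-40953470, plus strand) it lies 209 bases before, on the opposite strand.
ASNS: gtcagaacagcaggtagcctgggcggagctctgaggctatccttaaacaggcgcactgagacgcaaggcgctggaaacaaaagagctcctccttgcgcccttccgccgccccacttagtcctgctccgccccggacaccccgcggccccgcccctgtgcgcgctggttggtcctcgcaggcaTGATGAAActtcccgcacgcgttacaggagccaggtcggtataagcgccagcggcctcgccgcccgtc
ATF3: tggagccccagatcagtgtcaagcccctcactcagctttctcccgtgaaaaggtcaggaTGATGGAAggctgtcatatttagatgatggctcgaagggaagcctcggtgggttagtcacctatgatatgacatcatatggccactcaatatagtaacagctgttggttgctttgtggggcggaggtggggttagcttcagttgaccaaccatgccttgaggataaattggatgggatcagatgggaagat
CHAC1: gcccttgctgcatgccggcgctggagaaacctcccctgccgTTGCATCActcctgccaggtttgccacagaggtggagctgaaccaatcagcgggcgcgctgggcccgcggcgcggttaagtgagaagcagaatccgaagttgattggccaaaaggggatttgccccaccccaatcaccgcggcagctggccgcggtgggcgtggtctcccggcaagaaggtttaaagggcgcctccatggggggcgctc
ATF3, a stress-induced factor, was lowest in ATC1, with 637 counts against 944, 1211 and 758. ASNS, asparagine synthetase, had 5663 counts in ATC1, between the 4535 of ATC4 and the 9634 and 10743 of ATC2 and ATC3. CHAC1, which degrades glutathione, had 157 against 343, 108 and 280. Of the 3, ATF3 alone was lower in ATC1 than in every other clone. A match is a description of the sequence.

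Chaperones and folding enzymes of the endoplasmic reticulum were lowest in ATC1 in 16 of 25 genes and highest in 1, by small margins. The shares over all genes were 18.7% lowest and 18.1% highest. The median log2 difference was -0.33 from the mean of the other clones. Among the 16, the counting interval of the ratio to the nearest clone included 1 for CRELD2, DNAJB9, EIF2AK3, HYOU1 and SEL1L. HSPA5, the chaperone BiP, had 12034 counts in ATC1, 15989, 14662 and 14034 in the other clones and 9906 in Parental_1. XBP1, a transcription factor of the unfolded protein response, had 1600 counts against 2953, 2281 and 2118, with 1358 in Parental_1, a 1.47-fold ratio to ATC4 (1.37 to 1.57). The clones ATC2 to ATC4 were above Parental_1 in both genes, and ATC1 was closer to it. CALR, calreticulin, was the exception, with 19650 counts in ATC1 against 11850, 15825 and 14897. With libraries scaled by their totals alone, the 16 genes lowest in ATC1 became 9. At 48 h, 23 of the 25 were below Parental_2.

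HOX genes, which set positional and progenitor identity, were lowest in ATC1 in 9 of 13 examined and highest in 0, with a median log2 difference of -0.54. Among those 9, the counting interval of the ratio to the nearest clone included 1 for HOXB5, HOXB7, HOXC4, HOXC6 and HOXD4. HOXB9 had 4566 counts in ATC1, 6175, 6101 and 5495 in the other clones and 4468 in Parental_1. HOXB8 had 430 counts against 707, 560 and 623, with 400 in Parental_1, and HOXB6 had 153 against 247, 238 and 205, with 145. In these 3 genes the other clones lay above both ATC1 and Parental_1 in CPM, and over the 9 genes Parental_1 was above ATC1 in 8. HOXC9 did not follow, with 285 counts in ATC1 against 196, 258 and 178.

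TNF family ligands and receptors had the highest share of members above: 8 of 21 were highest in ATC1 and 1 lowest, against 18.1% and 18.7% of all genes, with a median log2 difference of 0.22. In 6 of the 8 the counting interval of the ratio to the nearest clone included 1, FAS and TNFSF14 among them. Besides TNFSF13B, TNFSF14 (LIGHT) had 30 counts against 14, 14 and 12, and FAS, the death receptor, had 352 against 288, 239 and 21, with 8 in Parental_1. Lists with few or no members outside the range included the 13 mitochondrially encoded genes (0 highest, 0 lowest), the 38 nuclear respiratory chain genes (1 and 0), the 35 replication genes (1 and 3) and the 37 cytosolic ribosomal protein genes (0 and 2). Of the 9 globins examined, 0 were highest and 1 lowest in ATC1. No member of the 43 lists was called by edgeR.

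**Figure D4:**
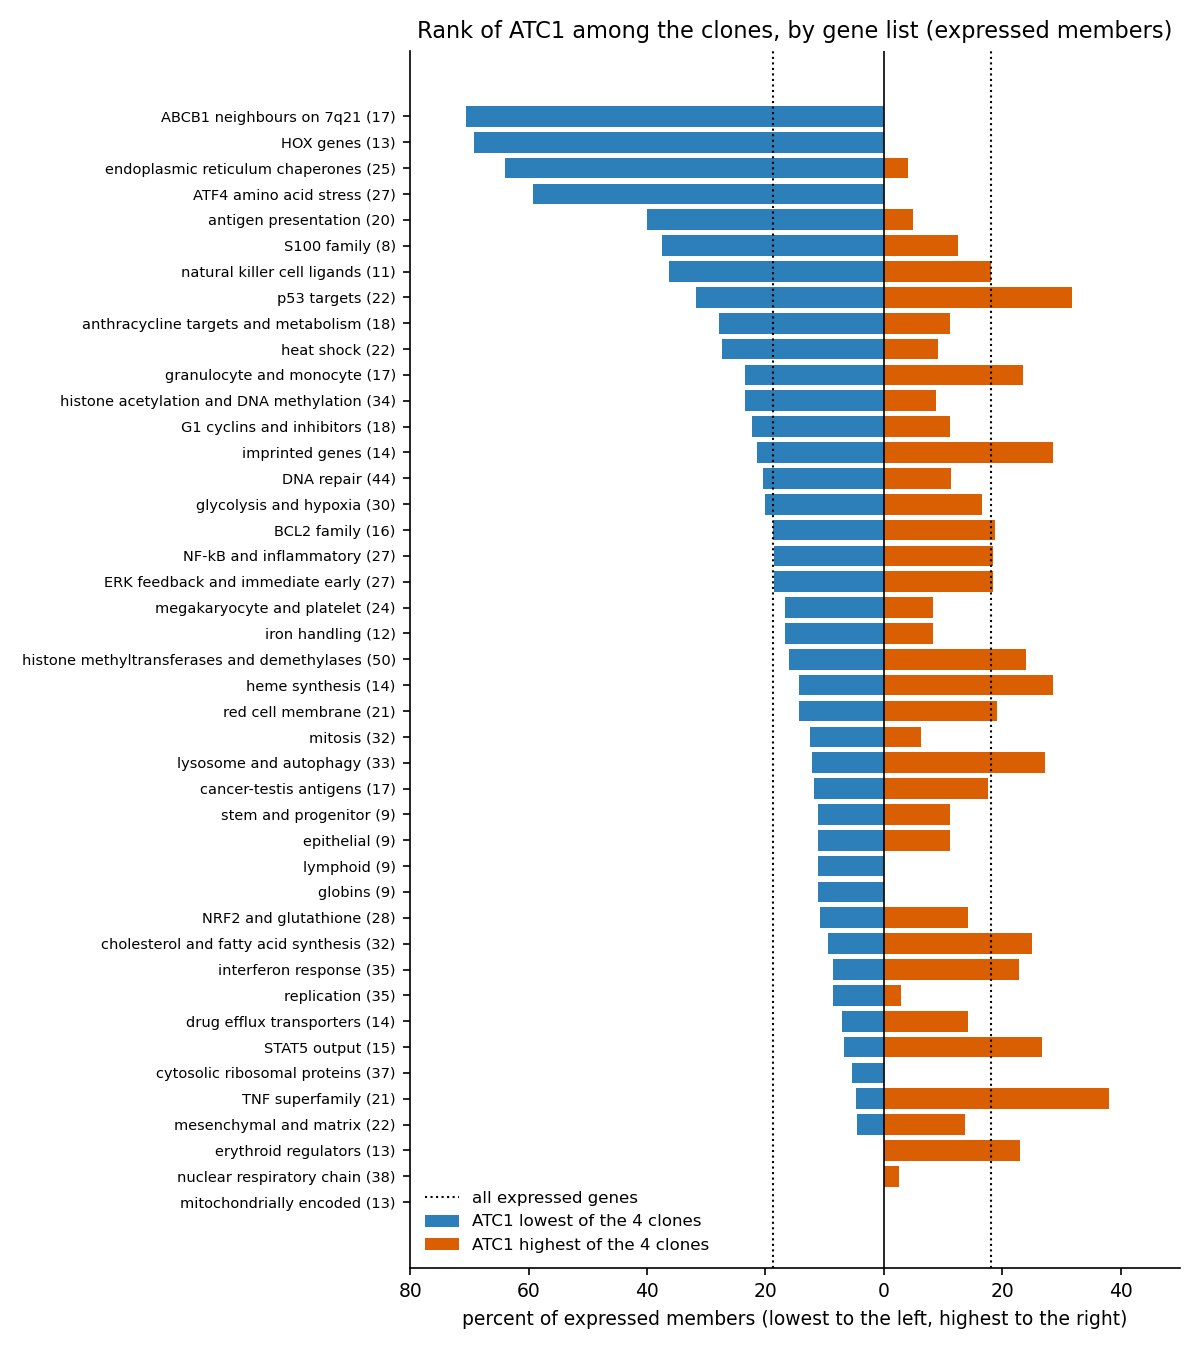
Percent of the expressed members of each list (y axis, number examined in brackets) in which ATC1 is the lowest of the 4 clones (bars to the left) or the highest (bars to the right). Dotted lines mark all expressed genes, at 18.7% lowest and 18.1% highest, and the 4 longest bars to the left are the neighbours of ABCB1, the HOX genes, the chaperones and the ATF4 list.

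Along the chromosomes, ATC1 was below the other clones over a stretch of the short arm of chromosome 6. Between 30 and 50 Mb in GRCh38, with gene starts from 30001011 to 49605158, 173 of 259 genes (66.8%) were lowest in ATC1 and 20 of them by 2-fold, against 18.7% and 1.11% of all genes. The median log2 difference was -0.57 from the mean of the other clones and -0.52 from Parental_1, and Parental_1 itself differed from the other clones by -0.04. In bins of 5 Mb the share was highest between 40 and 45 Mb, with 54 of 66 genes lowest (81.8%), a median of -0.94 and 15 genes past the 2-fold margin. Scaled by library totals, the stretch from 40 to 50 Mb remained, with 60 of 76 genes lowest, and that from 30 to 40 Mb no longer reached 60%. Whether chromosome copies differ there was not tested.

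CCND3, the cyclin D3 that drives entry into S phase (chromosome 6, 41934933 to 42050357), lies in this stretch. It had 4348 counts in ATC1, 11075, 10761 and 9056 in the other clones and 4495 in Parental_1, or 194 CPM in ATC1 against 517 ± 60.4 CPM (SD, n = 3) and 239 CPM in Parental_1. ATC1 was thus 2.31-fold under ATC4 (2.23 to 2.39), and the other clones were above Parental_1. KLC4, a kinesin light chain (chromosome 6, 43040777 to 43075099), had 312 counts in ATC1, 747, 686 and 727 in the other clones and 312 in Parental_1. TFEB, the factor that drives lysosomal genes, had 66 counts against 166, 212 and 171, with 104 in Parental_1 and 30 in Parental_2. The log2 difference of TFEB in ATC1 was -0.89 from Parental_1 and 0.24 from Parental_2. FRS3, an adaptor of fibroblast growth factor receptors, had 66 counts against 166, 148 and 211, with 111 in Parental_1. Of the 33 lysosome and autophagy genes, 9 were highest in ATC1 and 4 lowest, TFEB among the latter, against 18.1% and 18.7% of all genes. The list median was a log2 difference of -0.01 from the mean of the other clones. The counting interval of the ratio to the nearest clone included 1 for ATG5, ATP6V1A, CTSD, HEXA, LAMP1 and NPC1 of the former and GABARAPL1 of the latter. TDRD6, a germ cell gene, had 4 counts against 171, 15 and 127.

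The antigen presentation list, with 8 of 20 genes lowest in ATC1, had 5 of those 8 in this stretch, which holds the HLA cluster. Of all genes, 18.7% were lowest in ATC1. Among the 8, the counting interval of the ratio to the nearest clone included 1 for HLA-DMA, HLA-DPA1, HLA-DPB1, HLA-E and HLA-F. The margins of all 8 were under 2-fold. HLA-E, a non-classical class I molecule, stood at 112 CPM in ATC1 against 228, 155 and 118 CPM in ATC2 to ATC4. The other bins that reached 60% were smaller. Between 210 and 220 Mb of chromosome 1, 21 of 34 genes were lowest in ATC1 with a median of -0.52, among them SMYD2, a lysine methyltransferase, with 571 counts against 795, 762 and 891 and 1383 in Parental_1. Between 140 and 150 Mb of chromosome 4, 15 of 25 genes were highest with a median of 0.37, among them USP38, a deubiquitinase, with 2301 counts against 1016, 649 and 822. With libraries scaled by their totals neither the chromosome 1 nor the chromosome 4 bin reached 60%, and bins from 0 to 10 Mb (145 of 229 genes) and from 50 to 60 Mb (129 of 204) of chromosome 19 were highest in ATC1. In bins of 5 Mb the chromosome 4 bin was also missing, and a bin from 80 to 85 Mb of chromosome 16 was lowest (22 of 31). By the same rule as at first, ATC2 had 4 segments, ATC3 7 and ATC4 18, so such stretches were not particular to ATC1.

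The genes high in ATC1 were often higher in parental cells exposed to the drug for 48 h as well. Of 201 genes 2-fold above that could be joined to the 48 h table, 88 (43.8%) were at least 2-fold higher at 48 h than in Parental_2 and 18 (8.96%) at least 2-fold lower. Over all 15805 joined genes the shares were 15.6% and 9.77%. CEBPE had 3 counts in Parental_2 and 93 at 48 h, EPSTI1 had 3 and 34, and DHRS2 had 729 and 164. Of the 174 joined genes 2-fold below, 37 (21.3%) were higher and 35 (20.1%) lower at 48 h. The genes above were thinly read in Parental_2, with a median of 6 counts against 236 over all genes, and the part of this in the share was not tested. With 1 library on each side there is no replicate check of the 48 h values.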

How the data were processed

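RNA sequencing counts per gene were deposited by the authors in 2 tables, 1 with the 4 clones and Parental_1 and 1 with Parental_2 and the 48 h library. The deposited values are counts plus 1 with missing entries for genes not read, so 1 was subtracted and missing entries were taken as 0. The authors' deposited log2 fold changes were not used. Per the labels, libraries were made with a stranded poly(A) kit. The build was GRCh38 per the submitters' processing notes, and the sources used here name no aligner or counter. Gene positions in the table were within 10 bases of GENCODE 29 for 577 of 32415 genes, so positions were taken from GENCODE 29 by Ensembl ID.

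ATC1 was compared with ATC2, ATC3 and ATC4 with edgeR 4.0.16 (R 4.3.3, quasi-likelihood test, TMM, 2 residual degrees of freedom, adjusted p threshold 0.05). The test was also run on simulated data, and the share of changed genes it recovers is not reported here. Alternatives were DESeq2 1.42.0, limma 3.58.1 voom, other scalings, other filters and leaving out each clone. Margins are log2 ratios of CPM with a prior count of 2, over genes with at least 20 counts in the highest clone. Counting intervals are 95% exact binomial, and with the floor of 3 counts they cover counting error only. Total counts of 12537146 to 21361758 per library set this precision. Named genes were ABCB1, TOP2A and TOP2B, the 12 largest margins on each side among genes with a symbol and at least 100 counts, the 8 smallest adjusted p on each side, up to 2 members of each list past the 2-fold margin, and up to 4 genes of each chromosome segment. Other list members and example genes were chosen after their values were seen. Segments are 10 Mb bins with at least 20 genes, 60% of them outside the range on 1 side. The members and the 43 lists, of which 1099 of 1124 entries matched, were chosen with earlier results of these data known. Some genes are not reported here.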

Additional observations from a re-analysis of the deposited data

Results flagged for a closer look

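For 58 values the 4 clones were checked for a library whose gap to its nearest neighbour takes up more of the whole range than Dixon's 95% critical value allows. Chance marks about 1 in 20 groups, and most of these genes were chosen for the margin of ATC1, so the marks describe the choice as well. ATC1 was the library that stood apart in all 8 marked values, as the highest in 6 and the lowest in 2. Its log2 CPM was 3.87 for KLF8, 2.65 for BCL6B and 2.49 for EPSTI1, with the 3 other clones close to each other. It was 4.06 for SETD7, 1.96 for SPRY1 and 2.58 for the non-coding RNA ENSG00000234610, which had 132 counts in ATC1 against 9, 11 and 9. ATC1 was the lowest for KLC4, at 3.81, and for TCEAL4, at 0.69.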

How the results depend on the processing

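DESeq2 called 10 genes higher and 25 lower in ATC1 where edgeR called 0 and 0, and leaving out 1 clone gave 0 to 11 higher and 0 to 5 lower, the highest of each without ATC4. The 202 genes 2-fold above became 86 with at least 100 counts, 439 with no filter, 42 at 4-fold and 311 to 431 without 1 clone. The 175 below became 99, 305, 33 and 249 to 423. Fewer clones to exceed, by construction, give more genes. The share with Parental_1 on the side of ATC1 was 19.05% above and 24.2% below at 4-fold, 25.9% below with Parental_2 in its place, and 7.07% to 20.2% above and 38.2% to 60.3% below without 1 clone, highest without ATC4. With library totals only, 9 endoplasmic reticulum chaperones and 7 neighbours of ABCB1 were lowest in ATC1, and the cause was not tested. Leaving out 1 clone gave 16 to 23 for the ATF4 list, 17 to 20 for the chaperones, 9 to 11 for HOX genes and 12 to 17 for the neighbours. These and the scaling by RLE size factors for the 4 lists were chosen after seeing the data. Of 112 margins of named genes recomputed, 4 moved by more than the spread between the other clones (ENSG00000234610, KLC4, SMYD2 and TCEAL4, all with library totals), and 0 of 43 list medians did. No paired analysis was possible because only the clones carry replicate numbers in the labels.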

Other observations

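ARHGAP15, a GTPase-activating protein for Rac, had 8 counts in ATC1, 509, 44 and 497 in ATC2 to ATC4 and 565 in Parental_1. The cancer-testis genes PAGE5 and PAGE2B lay on opposite sides of the other clones: PAGE5 had 449 counts in ATC1 against 1540, 2378 and 973, and PAGE2B had 514 against 16, 30 and 92. PAGE5 and PAGE2B belong to a family of closely similar copies, so reads may be split between them. CD9, a tetraspanin of platelets and progenitors, had 905 counts in ATC1, 318, 664 and 28 in the other clones and 25 in Parental_1. These genes were chosen after their values were seen.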
